A study of Mus musculus with 10 samples.

Results

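The genes described here are 10 thermogenic effector and beige marker genes of mouse adipocytes: Dio2, Elovl3, Otop1, Acot2, Acot11, Cited1, Kcnk3, Slc29a1, P2rx5 and Ppargc1b. Their chromatin accessibility was read from ATAC-seq peaks, the stretches of open DNA that a transposase cuts and tags for sequencing. A peak was taken as a member when its midpoint lay inside the RefSeq bounds of a member gene on GRCm38, or outside all genes with a member as the nearest gene within 50 kb. This gave 72 of the 122984 peaks, 46 inside the genes and 26 outside them. Ppargc1b held 24 of them, Kcnk3 15, Acot11 9, Slc29a1 6, Elovl3 5, Otop1 4, Cited1 and P2rx5 3 each, Acot2 2 and Dio2 1. The median member peak was 392 bp wide, beside 358 bp over all peaks.

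All libraries came from adipocytes differentiated from MAP cells, 1 immortalized line of mouse adipocyte progenitors, and the 5 groups had 2 libraries each. The groups were rosiglitazone for 3 days (Rosi3D), the vehicle control (Control), and forskolin for 4 hours (FSK4h), 1 day (FSK1D) and 3 days (FSK3D). Forskolin turns on adenylyl cyclase, so that cAMP, which carries adrenergic signals into fat cells, accumulates. Rosiglitazone is a thiazolidinedione ligand of PPARγ. The labels give browning as the aim of both treatments, state no dose for either, and list rosiglitazone, insulin, dexamethasone and isobutylmethylxanthine in the differentiation medium that all groups, controls included, had received. Nuclei were sorted on a DNA dye, which does not select adipocytes from undifferentiated cells. No label states that the libraries within a group are from different cultures, so the p-values measure the spread between libraries, which may be technical.

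The libraries held 10410233 to 18935287 counts in peaks, with the controls S1 and S2 at 10410233 and 13055443. Peaks of all 10 adipocyte marker genes checked were present, and their summed level was 1232 to 1251 CPM (counts scaled to library size) with rosiglitazone, 998 to 1095 in the controls, 953 to 1018 after 4 hours of forskolin, 877 to 886 after 1 day and 905 to 954 after 3 days. For 9 progenitor markers the ranges were 667 to 687, 714 to 725, 625 to 628, 662 to 689 and 686 to 708 CPM in the same order of groups. For 8 macrophage markers, of which Adgre1 had no peak, they were 147 to 152, 137 to 143, 146 to 149, 132 in both libraries, and 129 to 133 CPM. The part of these differences in the results below was not tested. In such bulk libraries a change in the share of cells with open chromatin at a site and a change in openness per cell cannot be told apart.

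Brown and beige adipocytes burn fuel to make heat, and cAMP and PPARγ both act on the genes that let them do so. Some of the genes described here serve fuel supply and hormone activation, some set ion and nucleoside traffic across the cell membrane, and others act on transcription. Dio2 encodes the deiodinase that makes active thyroid hormone inside the cell and is a classical cAMP-responsive gene of brown fat. Cited1, Slc29a1, P2rx5 and others have been used as markers of beige or brown fat cells.

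Promoter sequences (250 bases before to 50 after a start site, RefSeq, GRCm38.p6) were listed for 6 of the 10 genes, at 16 start sites. They are shown for 3 genes because their results differ: no peak overlapped the Dio2 promoter, the peak over the Cited1 promoter rose with both agents, and the peak over the Acot2 promoter fell at 4 hours of forskolin. Each runs 5′ to 3′ in the direction of the gene, and capitals mark letters that match a searched motif. The windows are chr12:90738989-90739288 on the minus strand for Dio2, chrX:102252132-102252431 on the minus strand for Cited1, and chr12:83987611-83987910 on the plus strand for Acot2.
Dio2: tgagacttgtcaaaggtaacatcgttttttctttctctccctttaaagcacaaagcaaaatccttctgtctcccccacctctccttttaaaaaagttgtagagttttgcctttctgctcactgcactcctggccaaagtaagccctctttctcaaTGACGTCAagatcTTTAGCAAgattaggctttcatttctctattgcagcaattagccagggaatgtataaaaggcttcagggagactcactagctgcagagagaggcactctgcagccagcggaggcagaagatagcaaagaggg
Cited1: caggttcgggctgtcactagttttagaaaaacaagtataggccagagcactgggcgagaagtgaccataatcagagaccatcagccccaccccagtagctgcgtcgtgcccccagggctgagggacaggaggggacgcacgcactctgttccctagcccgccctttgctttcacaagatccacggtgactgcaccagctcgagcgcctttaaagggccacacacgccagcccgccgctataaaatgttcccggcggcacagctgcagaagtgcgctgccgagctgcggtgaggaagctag
Acot2: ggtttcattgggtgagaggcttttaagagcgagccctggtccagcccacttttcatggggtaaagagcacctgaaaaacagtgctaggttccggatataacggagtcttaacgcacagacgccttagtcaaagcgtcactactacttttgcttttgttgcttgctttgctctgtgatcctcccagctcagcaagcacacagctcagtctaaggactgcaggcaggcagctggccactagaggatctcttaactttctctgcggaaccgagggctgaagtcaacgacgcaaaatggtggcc
In Dio2 the capitals are TGACGTCA, the palindromic cAMP response element, starting 95 bases before the start site, and TTTAGCAA, a match to TTGCNNAA (the C/EBP letters) on the other strand, starting 82 bases before it. The Cited1 and Acot2 windows shown held none of the letters searched. Of all 32851 listed promoters, 1.79% held TGACGTCA and 10.8% held TTGCNNAA. The other letters searched on both strands were TGACGCAA (0.49% of promoters), TGACTCA of AP-1 (5.2%), the direct repeat that PPAR and RXR bind, by its DR1 consensus (0.0396%) and the nuclear receptor letters AGGTCA (16.3%), which the direct repeat contains. AGGTCA was found at 3 other windows, 2 of Slc29a1 and 1 of Cited1. A match is a description of the letters, not a bound site.

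The comparisons of each treatment with control asked which member peaks opened or closed. They share the 2 control libraries. All changes given from here on are log2 fold changes, and a p in brackets after a library's name is the adjusted p without it. Calls rest on edgeR's quasi-likelihood test with a Benjamini-Hochberg adjusted p under 0.05 over all 118962 peaks or all 17092 genes tested, and 71 of the 72 member peaks could be tested. After 4 hours of forskolin 11 member peaks rose and 12 fell, or 15.5% and 16.9% of those tested, beside 18.5% and 12.9% of all peaks. After 1 day 8 rose and 7 fell, beside 12.9% and 9.84% of all peaks. After 3 days 5 rose and 3 fell, beside 8.49% and 5.34%. With rosiglitazone 10 rose and 2 fell, or 14.1% and 2.82% of those tested, beside 3.22% and 3.35% of all peaks. The median log2 fold changes of the member peaks were 0.10, 0.05 and 0.11 at the 3 forskolin times and 0.13 with rosiglitazone, and over all peaks they were −0.005, 0.04, 0.01 and −0.004. The forskolin shares were thus near or under the background for rises, and the share risen with rosiglitazone was above it. Of the 10 peaks risen with rosiglitazone, 5 belonged to Ppargc1b, which held 24 of the tested member peaks.

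**Figure D1:**
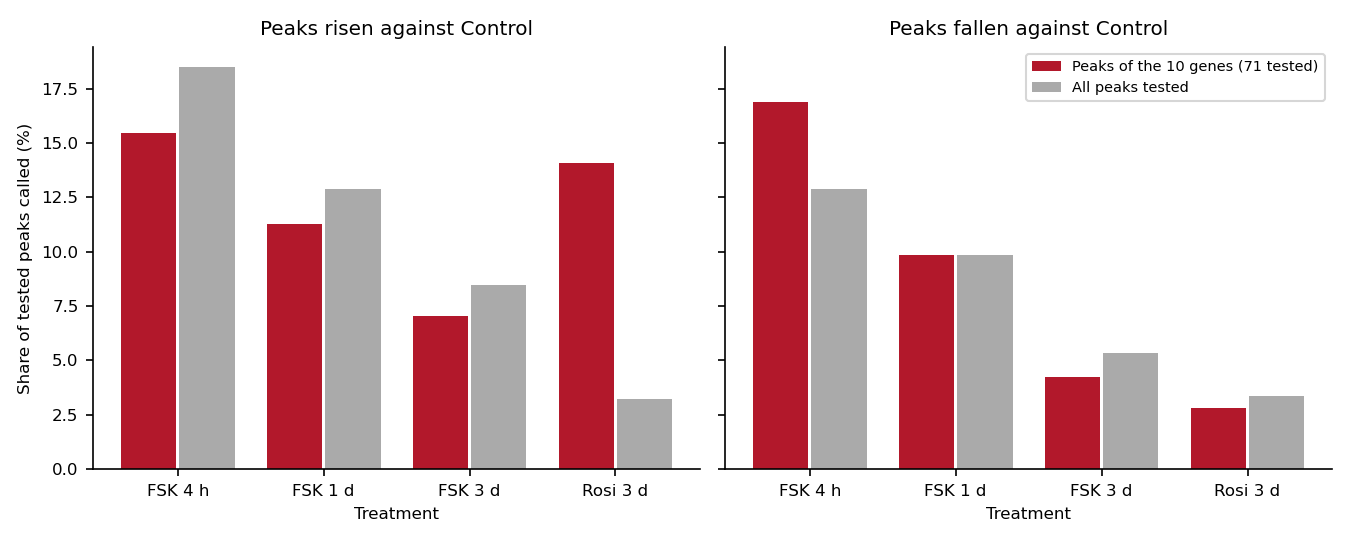
Share of tested peaks called (%) against control, risen on the left and fallen on the right, for the 71 tested peaks of the 10 genes and for all tested peaks. With rosiglitazone 14.1% of the member peaks rose, beside 3.22% of all peaks, while at each forskolin time the member share of risen peaks was below that of all peaks.

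These counts depended on single libraries. In each left-out case given here the count over all peaks was lower too, and its share is given in brackets. The 12 peaks that fell at 4 hours were 6 without S3 (6.85% of all peaks). At 1 day the 8 risen peaks were 5 without S1 (9.42%), and the 7 fallen were 4 without S2 (4.24%) and 2 without S5 (4.09%). The 3 peaks fallen at 3 days were 0 without S2 (2.43%) and 0 without S7 (3.09%). The 10 peaks risen with rosiglitazone were 3 without S1 (1.58%), 6 without S2 (1.72%), 4 without S9 (1.31%) and 5 without S10 (1.69%). The 2 fallen were 0 without S2 (1.6%) or S9 (1.43%) and 1 without S1 (1.67%), S5 (2.87%) or S6 (2.88%). In all, 14 of the 71 tested member peaks rose at any forskolin time (21.8% of all peaks did), 3 of them at every time (6.13%), and 14 fell at any time (17.2%). At 4 hours but not at 3 days, 8 were risen (11.7% of all peaks). Of the 10 risen with rosiglitazone, 5 were also called upward at a forskolin time (1.5% of all peaks were called in both), and 37 member peaks had no call against control (58.5%).

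Counts summed over all peaks of a gene gave 1 accessibility value per gene. At 4 hours of forskolin 2 of the 10 genes rose and 4 fell, beside 12.1% and 23.2% of all genes. At 1 day 1 rose and 2 fell (9.33% and 28.4% of all genes), and at 3 days 1 rose and 1 fell (5.22% and 10.4%). With rosiglitazone 3 rose and 0 fell in edgeR (2.37% and 5.14%), 1 gene being lower at an unadjusted p under 0.05 and 0 in DESeq2. Those 3 were Elovl3, Cited1 and Ppargc1b. The gene sums hide opposite moves of single peaks, which are given gene by gene below.

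**Figure D2:**
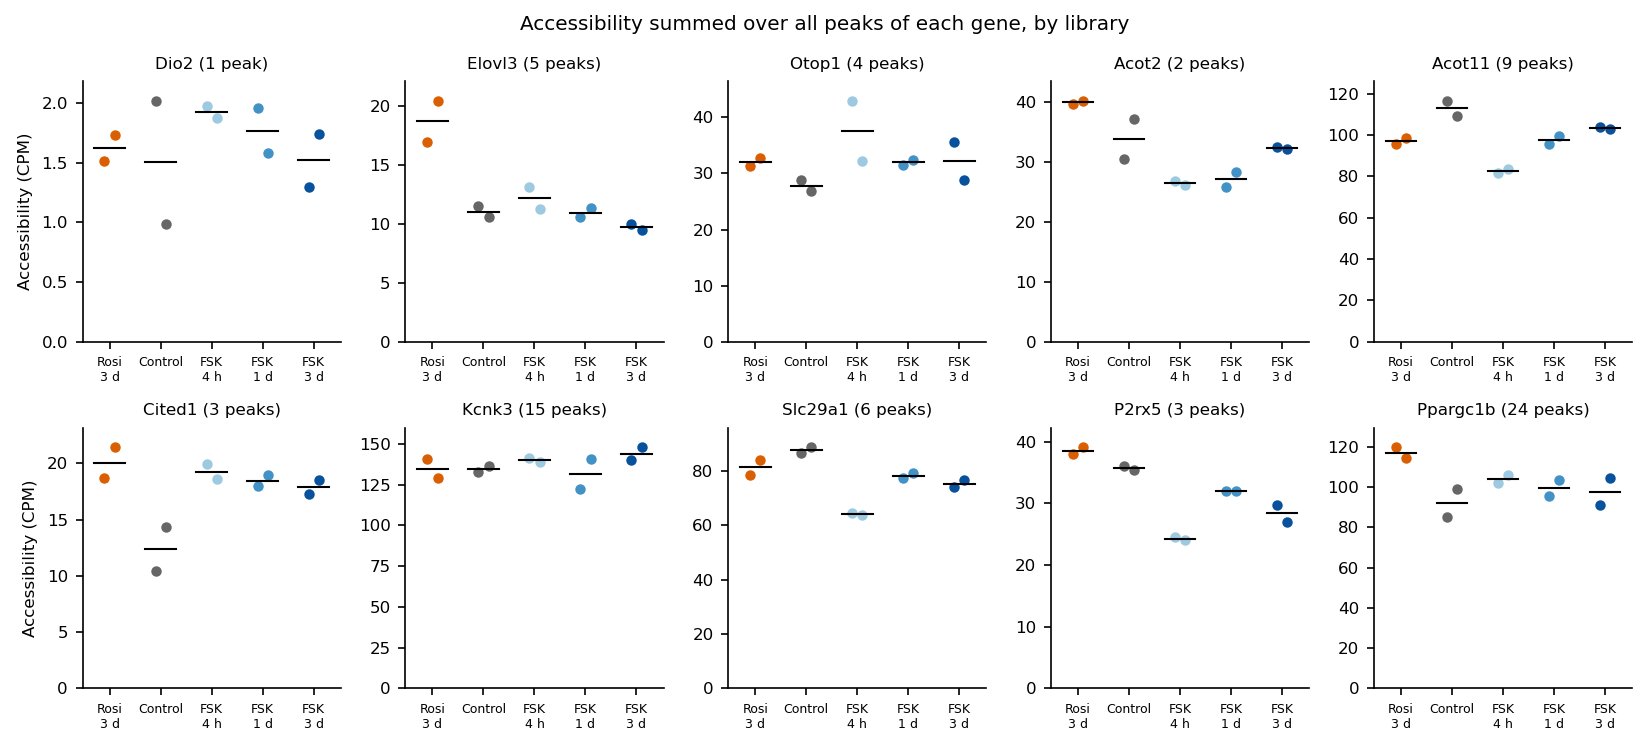
Accessibility (CPM) summed over all peaks of each gene, for each library (points) and the mean of the 2 libraries of a group (bars), with an axis from 0. Elovl3 stood at 16.9 and 20.4 CPM with rosiglitazone against 11.5 and 10.6 in the controls, and Acot11 was lowest after 4 hours of forskolin, at 81.5 and 83.4 CPM.

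Of the transcriptional regulators, Cited1 encodes a cofactor of CBP and p300 and lies on chromosome X from 102247378 to 102252181. It was the 1 member gene called upward in all 4 comparisons with control. It had 18.7 and 21.4 CPM with rosiglitazone, 10.4 and 14.4 in the controls, 19.9 and 18.6 after 4 hours of forskolin, 17.9 and 19.0 after 1 day and 17.3 and 18.5 after 3 days. Every treated library lay above both controls. The log2 fold changes were 0.68 with rosiglitazone (SE 0.15, adjusted p = 0.0071), 0.62 at 4 hours (SE 0.15, adjusted p = 0.0031), 0.56 at 1 day (adjusted p = 0.0055) and 0.52 at 3 days (adjusted p = 0.026). The control S1 was the lowest library, and without it none of these calls held: the adjusted p was 0.114 with rosiglitazone, 0.0633 at 4 hours, 0.0978 at 1 day and 0.219 at 3 days. Without S10 the rosiglitazone value was 0.0765, and the 3-day value was 0.104 in a fit of only those groups and 0.119 with gene-end peaks alone.

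Most of the Cited1 counts lay in the peak over the promoter shown above (chrX:102251330-102252465), which covers 2 listed start sites. This peak had 16.0 and 16.9 CPM with rosiglitazone, 9.59 and 11.6 in the controls, 15.7 and 15.3 after 4 hours of forskolin, 15.1 and 15.8 after 1 day and 13.0 and 15.9 after 3 days. It rose by 0.63 with rosiglitazone (SE 0.16, adjusted p = 0.0066), 0.55 at 4 hours (adjusted p = 0.0057) and 0.54 at 1 day (adjusted p = 0.0081), and the 3-day value of 0.43 did not pass (adjusted p = 0.06). Without S1 the adjusted p-values were 0.128 with rosiglitazone, 0.0944 at 4 hours and 0.122 at 1 day, without S10 the rosiglitazone value was 0.0718, and the 1-day value was 0.0622 without S6 and 0.0506 in DESeq2. The peak at the inner start site (chrX:102250734-102250938) held 0.404 to 1.47 CPM and had no call. A peak outside the gene was called upward at 4 hours (1.07, adjusted p = 0.043). That call ended without S1 (0.55) or S3 (0.349), with trended offsets (0.0726), in a fit of only those groups (0.0671) and in DESeq2 (0.118).

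Ppargc1b, which encodes PGC-1β, a coactivator of genes for mitochondria and fat oxidation, lies on chromosome 18 from 61291445 to 61400756. Its sum over 24 peaks was 120 and 115 CPM with rosiglitazone, 85.0 and 99.1 in the controls, 102 and 106 after 4 hours of forskolin, 95.4 and 103 after 1 day and 91.3 and 104 after 3 days. The sum rose with rosiglitazone by 0.35 (SE 0.087, adjusted p = 0.018), a call that ended without S1 (0.194), S9 (0.217) or S10 (0.0591), within 10 kb (0.23, 0.167) and with peaks inside the gene alone (0.23, 0.171) or placed by genes of every type (0.23, 0.129). The forskolin values of 0.18, 0.11 and 0.08 did not pass (adjusted p = 0.12, 0.34 and 0.53). They depended on the scaling: the sum was called upward at 4 hours and 1 day when scaled to library size alone (0.28, adjusted p = 0.0042, and 0.26, 0.0065) or by trended offsets (0.31, 0.0011, and 0.30, 0.0018), and at 4 hours without S7 or S8 (0.0451 for each). With gene-end peaks alone the 1-day value was instead called downward (−0.44, adjusted p = 0.0468). Beneath the sums over all peaks, 4 peaks rose and 1 fell at 4 hours, and 4 rose and 1 fell at 1 day. At 3 days 1 rose, and with rosiglitazone 5 rose.

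The clearest forskolin peak of Ppargc1b lay inside the gene, 18628 bp from its high-coordinate end (chr18:61381844-61382413). It had 1.86 and 2.65 CPM with rosiglitazone, 1.21 and 2.64 in the controls, 8.35 and 7.24 after 4 hours of forskolin, 6.59 and 7.28 after 1 day and 5.49 and 6.01 after 3 days. All 6 forskolin libraries lay above the other 4. The log2 fold changes were 1.97 at 4 hours (SE 0.28, adjusted p = 5e-08), 1.81 at 1 day (adjusted p = 1.1e-06) and 1.53 at 3 days (adjusted p = 9.7e-05), and no alternative or left-out library ended these calls. With rosiglitazone the value was 0.20 (adjusted p = 0.8), and forskolin against rosiglitazone at 3 days gave 1.33 (SE 0.27, adjusted p = 0.00011).

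Other Ppargc1b peaks rose with rosiglitazone. The one with the smallest p (chr18:61437918-61438455) lay 37430 bp outside the gene. It rose by 1.58 (SE 0.28, adjusted p = 4.6e-05), with an adjusted p of 0.0551 without S2, and at 3 days it was lower with forskolin than with rosiglitazone by −1.12 on the log2 scale (adjusted p = 0.00052; 0.0612 without S7). A second outside peak (chr18:61442082-61442345) was called upward both at 4 hours (1.53, adjusted p = 0.00023) and with rosiglitazone (1.47, adjusted p = 0.0028; 0.116 without S9). Where models of every gene type were used to place peaks, these outside peaks belonged to another gene model and the rosiglitazone rise of the Ppargc1b sum was 0.23 (adjusted p = 0.129). The 1 peak at a gene end (chr18:61399985-61400871) held 12.4 to 23.0 CPM and fell at 1 day by 0.44 on the log2 scale (adjusted p = 0.032; 0.619 without S2, 0.462 without S5, 0.183 for library size alone, 0.0502 by trended offsets and 0.126 in DESeq2).

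**Figure D3:**
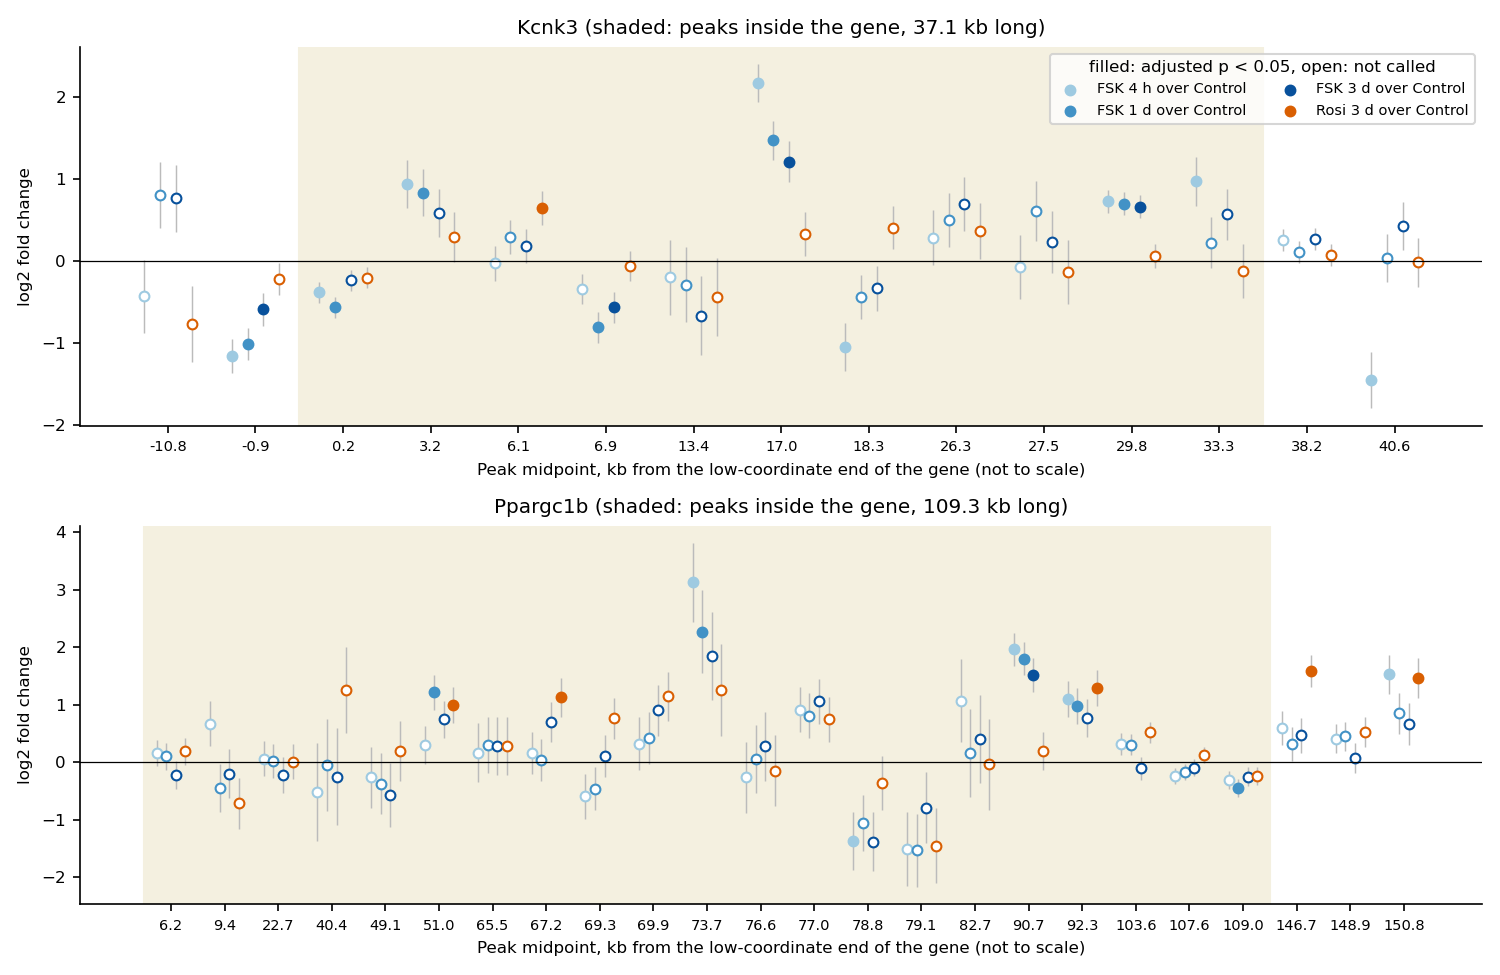
Log2 fold change against control of each tested peak of Kcnk3 (top) and Ppargc1b (bottom), in order along the gene, with bars of 1 standard error and filled symbols for calls. In Ppargc1b the peak 90.7 kb from the low-coordinate end was called at all 3 forskolin times and not with rosiglitazone, and in Kcnk3 peaks were called in both directions.

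Of the enzymes, Dio2 (chromosome 12, 90724552 to 90739038) had 1 peak, chr12:90740595-90740745, whose midpoint lay 1632 bp upstream of the gene. Where genes of every type place peaks, it belonged to another gene model, Gm26512, and Dio2 had no peak. Its level was 1.51 and 1.73 CPM with rosiglitazone, 2.02 and 0.991 in the controls, 1.97 and 1.87 after 4 hours of forskolin, 1.96 and 1.58 after 1 day and 1.30 and 1.74 after 3 days. The controls spanned all other libraries. No comparison passed: the 4-hour change was 0.38 (SE 0.44, adjusted p = 0.54) and the rosiglitazone change 0.14 (SE 0.45, adjusted p = 0.9). On the gene sum, which is the same peak tested among genes, the 95% interval of the 4-hour change ran from −0.43 to 1.21, so a change of that size could not be detected at this depth. The sign at 3 days turned with the controls, from 0.59 without S1 to −0.43 without S2. None of the counted peaks overlapped the promoter with the cAMP response element letters.

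Elovl3 encodes a fatty acid elongase that is induced by cold in brown fat, and it lies on chromosome 19 from 46131897 to 46135694. Its sum was 16.9 and 20.4 CPM with rosiglitazone, 11.5 and 10.6 in the controls, 13.1 and 11.3 after 4 hours of forskolin, 10.6 and 11.3 after 1 day and 10.0 and 9.50 after 3 days. Both rosiglitazone libraries lay above all others. Against control the sum rose by 0.76 with rosiglitazone (SE 0.15, adjusted p = 0.004; 0.09 without S2 and 0.0691 without S10), and no forskolin time passed (0.15, −0.01 and −0.17). At 3 days forskolin was lower than rosiglitazone, with a log2 difference of −0.94 (SE 0.15, adjusted p = 0.00016), and no alternative ended that call.

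The 1 Elovl3 peak called against control lay 21415 bp outside the gene (chr19:46110304-46110660). It had 4.13 and 5.19 CPM with rosiglitazone, 0.505 and 0.743 in the controls, 1.38 and 1.57 after 4 hours of forskolin, 0.559 and 0.662 after 1 day and 1.00 and 1.19 after 3 days. It rose by 2.86 with rosiglitazone (SE 0.46, adjusted p = 6.7e-06) and was lower with forskolin than with rosiglitazone at 3 days by −2.09 (SE 0.4, adjusted p = 3.6e-05). The 4-hour value of 1.21 did not pass (adjusted p = 0.059). The peak at the gene end (chr19:46131717-46132048) had 10.7 and 12.9 CPM with rosiglitazone and 9.49 and 7.93 in the controls, which did not pass (0.45, adjusted p = 0.15). With gene-end peaks alone the Elovl3 rise was therefore 0.45 (adjusted p = 0.2). With peaks kept within 10 kb it was also 0.45 and did not pass (adjusted p = 0.147).

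Acot2 and Acot11 encode acyl-CoA thioesterases, which release fatty acids from coenzyme A, Acot2 in mitochondria. Acot11, also called Them1, limits thermogenesis in mice. Acot2 (chromosome 12, 83987861 to 83993877) had 39.6 and 40.1 CPM with rosiglitazone, 30.5 and 37.2 in the controls, 26.8 and 26.1 after 4 hours of forskolin, 25.8 and 28.3 after 1 day and 32.4 and 32.0 after 3 days. The rosiglitazone value of 0.23 did not pass (adjusted p = 0.2), but it did with library size alone (0.335, 0.04). With forskolin the Acot2 sum fell at 4 hours by 0.36 (SE 0.11, adjusted p = 0.015) and at 1 day by 0.33 (adjusted p = 0.022) on the log2 scale. The 4-hour call ended without S2 (0.286), S3 (0.0715) or S4 (0.0862) and with library size alone (0.0666) or trended offsets (0.0692). The 1-day call ended without S2 (0.368) or S5 (0.174), and when scaled to library size alone (−0.17, 0.233) or by trended offsets (−0.20, 0.174).

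The Acot2 promoter shown above lay wholly inside the peak chr12:83987322-83988696, which had 35.4 and 35.1 CPM with rosiglitazone, 28.8 and 35.3 in the controls and 25.1 and 25.0 after 4 hours of forskolin. It fell at 4 hours by 0.36 (adjusted p = 0.026; 0.418 without S2, 0.118 without S3, 0.115 without S4, and, for library size alone and trended offsets, 0.0923 and 0.121). The other Acot2 peak (chr12:83999271-83999604), 5560 bp beyond the gene, had 4.27 and 5.00 CPM with rosiglitazone against 1.72 and 1.82 in the controls. It rose by 1.39 (SE 0.36, adjusted p = 0.0079; 0.0686 without S1, 0.0651 without S2 and 0.0918 without S10). Acot1 is a close relative of Acot2 in the same gene cluster, and whether reads that match both were counted is not stated in the labels.

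Acot11 (chromosome 4, 106744555 to 106805007) had 95.5 and 98.7 CPM with rosiglitazone, 116 and 109 in the controls, 81.5 and 83.4 after 4 hours of forskolin, 95.6 and 99.4 after 1 day and 104 and 103 after 3 days. Both controls lay above every treated library. The sum fell at 4 hours by 0.45 (SE 0.075, adjusted p = 0.00012), which no alternative ended, and at 1 day by 0.21 (adjusted p = 0.03). The 1-day call ended in 10 of the 19 alternatives: without S1 (0.177), S2 (0.0595), S5 (0.182), S6 (0.067) or S9 (0.0549), when scaled to library size alone (−0.06, 0.579) or by trended offsets (−0.02, 0.85), and where peaks were kept within 10 kb, kept inside the gene or placed with genes of every type (−0.10 in each). From 4 hours to 3 days the sum rose by 0.32 (adjusted p = 0.0076; 0.124 without S3, 0.0601 without S4, 0.0594 in a fit of only those groups, 0.233 within 10 kb, 0.256 inside the gene and 0.195 with genes of every type). The rosiglitazone value of −0.22 did not pass (adjusted p = 0.082), but it did without S7 (0.0256) or S8 (0.0247) and in a fit of only those groups (0.0383).

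The fallen Acot11 peak with the smallest p lay 43265 bp outside the gene on its start-site side (chr4:106847629-106848916). It had 14.0 and 15.1 CPM with rosiglitazone, 20.8 and 23.4 in the controls, 7.17 and 9.36 after 4 hours of forskolin, 15.1 and 18.9 after 1 day and 19.0 and 18.6 after 3 days. It fell by 1.42 at 4 hours (SE 0.16, adjusted p = 1.6e-11) and by 0.60 with rosiglitazone (SE 0.15, adjusted p = 0.0052; 0.11 without S2 and 0.0816 without S9), and from 4 hours to 3 days it rose by 1.18 (adjusted p = 5.1e-08). Its fall at 1 day was called too (−0.374, adjusted p = 0.049), but that call ended in 11 of the 15 alternatives. With gene models of every type this peak was nearest to another gene. A nearer outside peak (chr4:106817051-106817460) was higher with forskolin than with rosiglitazone at 3 days, at 6.31 and 7.83 CPM against 3.10 and 2.59 (1.31, SE 0.25, adjusted p = 5.2e-05). Against control at 3 days its call (0.71, adjusted p = 0.047) ended without S2 (0.389), S3 (0.0508), S4 (0.0501), S5 (0.0555), S6 (0.0573), S7 (0.0567) or S8 (0.223), with trended offsets (0.0761), in a fit of only those groups (0.0682) and in DESeq2 (0.141). The peak at an inner Acot11 start site held 1.21 to 2.65 CPM and had no call.

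Among channels and transporters, Otop1 encodes a proton channel and lies on chromosome 5 from 38277404 to 38304217. Its sum was 31.3 and 32.7 CPM with rosiglitazone, 28.8 and 26.8 in the controls, 42.9 and 32.2 after 4 hours of forskolin, 31.6 and 32.4 after 1 day and 35.6 and 28.9 after 3 days. It rose at 4 hours by 0.43 (SE 0.13, adjusted p = 0.013). This call was lost without S2 (0.128) or S3 (0.295), and with gene-end peaks alone (0.434). At 1 day the sum did not pass (0.20, adjusted p = 0.22), but it did with library size alone (0.36, 0.034) and trended offsets (0.34, 0.045). At 3 days the value of 0.22 did not pass (adjusted p = 0.24), and it was 0.36 without S8. The inner peak chr5:38298462-38299062 had 4.61 and 5.31 CPM with rosiglitazone, 5.75 and 5.37 in the controls, 18.5 and 13.2 after 4 hours of forskolin, 8.44 and 6.57 after 1 day and 7.31 and 6.01 after 3 days. It rose by 1.51 at 4 hours (SE 0.2, adjusted p = 8.5e-09) and was lower at 3 days than at 4 hours by −1.24 (adjusted p = 2e-06), and no alternative ended either call.

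The Otop1 peak with its midpoint within 1 kb of the start site (chr5:38277991-38278633) moved at other times than the peak above. It lay inside the gene and did not overlap the promoter window. It had 4.61 and 4.88 CPM with rosiglitazone, 2.02 and 2.23 in the controls, 2.89 and 2.54 after 4 hours of forskolin, 3.63 and 2.90 after 1 day and 5.19 and 3.17 after 3 days. It rose with rosiglitazone by 1.15 (SE 0.32, adjusted p = 0.014) and at 3 days of forskolin by 0.99 (SE 0.32, adjusted p = 0.026). Without 1 library the rosiglitazone p was 0.102 (S1), 0.0784 (S2), 0.0617 (S9) or 0.0864 (S10), and the 3-day p was 0.124 (S1), 0.106 (S2) or 0.453 (S7). DESeq2 gave 0.0596 and 0.0921 for these, and a fit of only those groups gave 0.0503 at 3 days.

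Kcnk3 encodes a K2P potassium channel of the TASK type and lies on chromosome 5 from 30588170 to 30625270. Its sum of 15 peaks had no call against control and stayed between 122 and 148 CPM in all libraries, with 141 and 129 CPM with rosiglitazone and 133 and 137 in the controls. At 4 hours the change was 0.06 (SE 0.075, adjusted p = 0.58; 0.17, adjusted p = 0.049, with trended offsets), while 4 of its peaks rose and 4 fell. At 1 day 3 rose and 3 fell, and at 3 days 2 rose and 2 fell. Trended offsets also called the 3-day sum upward (0.20, 0.036), and gene-end peaks alone gave called falls at 4 hours (−0.51, adjusted p = 0.0074) and 1 day (−0.65, 0.0011).

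The rising Kcnk3 peak with the smallest p lay inside the gene, 17035 bp from its low-coordinate end (chr5:30604804-30605607). It had 3.37 and 4.01 CPM with rosiglitazone, 3.03 and 2.89 in the controls, 13.2 and 13.5 after 4 hours of forskolin, 7.82 and 8.61 after 1 day and 5.60 and 8.31 after 3 days. All 6 forskolin libraries lay above the other 4. It rose by 2.17 at 4 hours (SE 0.23, adjusted p = 4.7e-12), 1.47 at 1 day (adjusted p = 2.2e-06) and 1.21 at 3 days (adjusted p = 0.00026), with no call lost in any alternative. The level at 3 days was lower than at 4 hours by −0.96 (SE 0.2, adjusted p = 0.00033). Against rosiglitazone at 3 days it was higher by 0.89 (adjusted p = 0.0021; 0.11 without S8). The rosiglitazone change from control was 0.32 (adjusted p = 0.53).

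At the low-coordinate end of Kcnk3 peaks fell. The peak 906 bp outside it (chr5:30587030-30587498) had 9.98 and 8.95 CPM with rosiglitazone, 9.59 and 12.3 in the controls, 5.26 and 4.59 after 4 hours of forskolin, 5.81 and 5.09 after 1 day and 7.20 and 7.44 after 3 days. It fell by 1.16 at 4 hours (SE 0.21, adjusted p = 6.7e-06), 1.01 at 1 day (adjusted p = 8.6e-05) and 0.59 at 3 days (adjusted p = 0.035). The 3-day call ended without S2 (0.387), S7 (0.163), S8 (0.0703) or S9 (0.0508), with library size alone (0.109) and in DESeq2 (0.0963). The peak across the end itself (chr5:30587814-30589013) had 38.7 and 36.4 CPM with rosiglitazone, 44.2 and 42.3 in the controls, 33.1 in both libraries after 4 hours and 26.2 and 32.1 after 1 day. It fell by 0.38 at 4 hours (adjusted p = 0.015; 0.0557 to 0.0953 without any 1 of S1, S2, S3 and S4, and 0.1 with trended offsets) and by 0.57 at 1 day (adjusted p = 0.00053; 0.0635 without S5). With these gene-end peaks alone the Kcnk3 change at 4 hours was −0.51 (adjusted p = 0.0074). The annotation used gives no strand for Kcnk3, so which end is its start was not read from it, and another gene model overlaps this end.

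**Figure D4:**
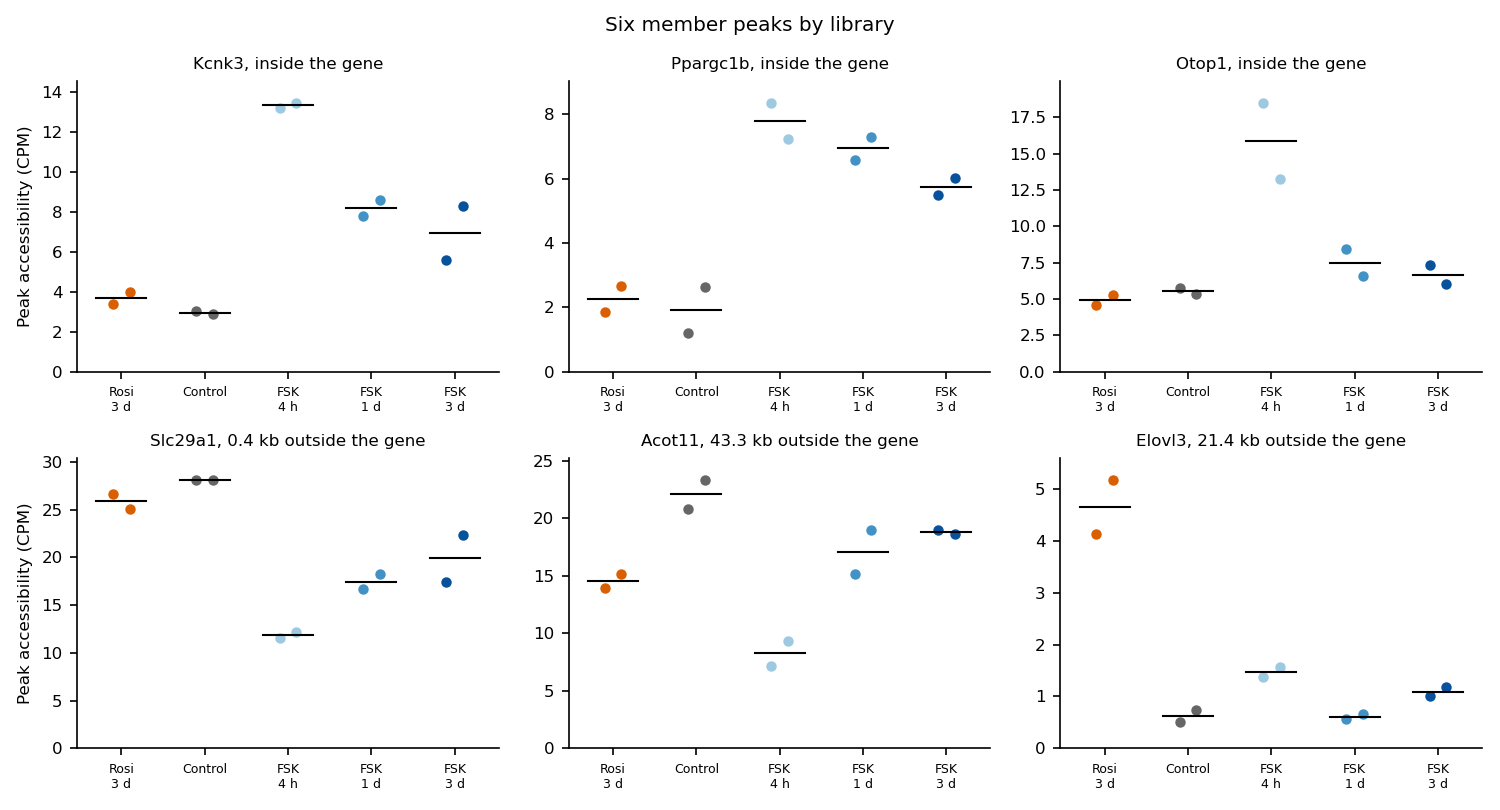
Accessibility (CPM) of 6 member peaks in each library (points) with group means (bars) and axes from 0. They are inner peaks of Kcnk3, Ppargc1b and Otop1, and peaks with midpoints outside Slc29a1, Acot11 and Elovl3. The Slc29a1 peak spans an end of the gene. The Otop1 peak was highest at 4 hours, at 18.5 and 13.2 CPM, the Slc29a1 and Acot11 peaks were lowest at 4 hours, and the Elovl3 peak was highest with rosiglitazone.

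Slc29a1 encodes the nucleoside transporter ENT1, which moves adenosine across the membrane, and lies on chromosome 17 from 45585200 to 45599618. Its sum was 78.7 and 84.2 CPM with rosiglitazone, 86.5 and 88.8 in the controls, 64.4 and 63.8 after 4 hours of forskolin, 77.3 and 79.3 after 1 day and 74.0 and 76.6 after 3 days. It fell at 4 hours by 0.45 (SE 0.081, adjusted p = 0.00026), which no alternative ended. The values of −0.16 at 1 day, −0.22 at 3 days and −0.11 with rosiglitazone did not pass (adjusted p = 0.11, 0.066 and 0.45). With gene-end peaks alone the falls were called at 1 day (−0.69, adjusted p = 0.0013) and 3 days (−0.51, 0.046), and the 3-day fall also without S8 (0.0331), and trended offsets gave 0.03 at 1 day.

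The gene-end values above were those of 1 peak, in which the fall mostly lay, so they are not a separate result. This peak (chr17:45584186-45585486) spans the end of Slc29a1 away from its start sites, with its midpoint 364 bp beyond that end. It had 26.6 and 25.1 CPM with rosiglitazone, 28.1 and 28.2 in the controls, 11.6 and 12.2 after 4 hours of forskolin, 16.7 and 18.2 after 1 day and 17.5 and 22.3 after 3 days. Both rosiglitazone and both control libraries lay above all 6 forskolin libraries. It fell by 1.24 at 4 hours (SE 0.14, adjusted p = 4.4e-11), 0.69 at 1 day (adjusted p = 7.1e-05) and 0.51 at 3 days (adjusted p = 0.006; 0.0529 without S2 and 0.195 without S7), and from 4 hours to 3 days it rose by 0.73 (adjusted p = 0.00015). Of the peaks over its start sites, the larger (chr17:45596647-45597505) had 33.9 and 35.0 CPM with rosiglitazone, 32.5 and 35.8 in the controls and 29.6 and 26.1 after 4 hours of forskolin, where it did not pass (−0.30, adjusted p = 0.065). The smaller (chr17:45595159-45595689) fell with rosiglitazone by 0.55 (adjusted p = 0.04), to 7.85 and 10.7 CPM against 13.6 and 13.5 in the controls. That call ended without S1 (0.14), S2 (0.148), S5 (0.0506), S6 (0.0506) or S9 (0.418), with library size alone (0.123) and in DESeq2 (0.11).

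P2rx5 encodes an ATP-gated cation channel of the P2X family and lies on chromosome 11 from 73155389 to 73172687. Its sum was 37.9 and 39.1 CPM with rosiglitazone, 36.0 and 35.4 in the controls, 24.5 and 24.0 after 4 hours of forskolin, 32.0 in both libraries after 1 day and 29.8 and 27.0 after 3 days. The 6 forskolin libraries lay below the other 4. It fell at 4 hours by 0.56 (SE 0.1, adjusted p = 0.00033), which no alternative ended, and at 3 days by 0.33 (adjusted p = 0.034). The 3-day call ended without S1 (0.111), S2 (0.144), S8 (0.0947) or S9 (0.0691), when scaled to library size alone (0.167) or by trended offsets (0.154), and in a fit of only those groups (0.124). The 1-day value of −0.16 did not pass (adjusted p = 0.22). Most counts lay in an inner peak (chr11:73160187-73161284), which fell by 0.61 at 4 hours (SE 0.13, adjusted p = 0.00017), to 21.2 and 19.0 CPM against 30.2 and 30.9 in the controls.

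Set directly against each other at 3 days, forskolin and rosiglitazone differed in 14 member peaks. Of these 5 were higher with forskolin and 9 lower, beside 12.9% and 8.82% of all peaks, and the 9 were 4 without S7 (5.77% of all peaks), 4 without S9 (4.48%) and 5 without S10 (5.15%). The median difference of the member peaks was −0.14, beside −0.001 over all peaks. By gene edgeR called 0 higher and 4 lower with forskolin, beside 8.38% and 8.38% of all genes; 0 were higher at an unadjusted p under 0.05, and DESeq2 called 0 higher and 2 lower. The 4 were Elovl3, P2rx5 (−0.44, SE 0.099, adjusted p = 0.0039), Acot2 (−0.31, adjusted p = 0.048) and Ppargc1b (−0.26, adjusted p = 0.037). The P2rx5 libraries had 29.8 and 27.0 CPM with forskolin, against 37.9 and 39.1 with rosiglitazone. The Acot2 call ended in 15 of the 20 alternatives and the Ppargc1b call in 13 of them. Each ended without S3, S4, S5, S6, S7, S9 or S10, and Acot2 also without S8. Both ended in DESeq2, in a fit of only those groups, within 10 kb, inside the gene and with gene-end peaks alone. The Acot2 call also ended with trended offsets and with any overlap, and the Ppargc1b call with genes of every type. Over all alternatives the log2 differences ran from −0.315 to −0.246 for Acot2 and from −0.361 to −0.00753 for Ppargc1b.

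Between 3 days and 4 hours of forskolin, 4 member peaks were higher at 3 days and 3 lower, beside 4.38% and 6.75% of all peaks. Those with the smallest p in each direction are the Acot11 and Otop1 peaks given above. A peak 3489 bp outside Kcnk3 (chr5:30628616-30628903) was also higher at 3 days than at 4 hours (1.88, SE 0.32, adjusted p = 1.7e-05), having fallen by 1.46 at 4 hours against control (adjusted p = 0.00057; 0.0719 without S2). By gene edgeR called 1 of 10, Acot11, higher at 3 days and 0 lower, beside 3.66% and 5.04% of all genes. None of the 10 was lower at an unadjusted p under 0.05 or in DESeq2.

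Genes named in other lists of thermogenic and beige markers were read on the same gene sums. Of 26 such genes, Ucp1, Ppargc1a, Cidea and Prdm16 among them, 25 were tested, and 1 (Cidec) is also on the adipocyte marker list. At 4 hours of forskolin 4 rose and 5 fell, at 1 day 5 rose and 3 fell, at 3 days 4 rose and 1 fell, and with rosiglitazone 8 rose and 0 fell. Their median change was 0.02, 0.05, 0.02 and 0.28 in that order, beside −0.12, −0.13, −0.10 and −0.05 over all genes. Over all genes, 12.1%, 9.33%, 5.22% and 2.37% rose in these comparisons, and 23.2%, 28.4%, 10.4% and 5.14% fell. Cpt1b, which brings long-chain fatty acids into mitochondria, had 6.19 and 6.36 CPM with rosiglitazone against 0.505 and 0.661 in the controls (3.39, adjusted p = 9.1e-05). Fabp3, a fatty acid binding protein of muscle and brown fat, had 22.8 and 21.8 CPM with rosiglitazone against 11.8 and 8.84 in the controls (1.12, adjusted p = 0.0003). At 4 hours of forskolin Lhx8 rose by 1.34 (adjusted p = 0.00011) and Adrb3, the β3-adrenergic receptor, fell by 1.04 on the log2 scale (adjusted p = 7.7e-06).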

How the data were processed

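ATAC-seq was measured in 10 libraries of 5 groups. The deposited table holds raw counts per peak, which the authors did not normalize, judged from whole numbers with unequal totals. Per the submitters' processing notes the tools included Bowtie2, fastp, Picard, SAMtools, featureCounts, MACS2 and deepTools, for which neither role nor version is listed, and the builds named are GRCm38 and mm10. Not given in the sources used here: if peaks came from single libraries or a pool, if the unit counted was the read or the fragment, and what was done about duplicates, multiply mapping reads and the transposase offset. Column names give a treatment and the numbers S1 to S10, used here to name libraries.

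Peaks were placed with the bounds of 21887 protein-coding genes of RefSeq GRCm38.p6. Start sites, and so strands, came from listed promoters. Both peaks and counts summed per gene went into edgeR 4.0.16 under R 4.3.3 (quasi-likelihood F test, robust dispersions, TMM factors, default filter on low counts) in 1 fit over all libraries, and called at an adjusted p below 0.05. CPM are counts scaled to library size after TMM. Standard errors were derived from the F statistic, and 95% intervals are the estimate ± 1.96 SE. Levels of different genes are not comparable, since genes hold different numbers and widths of peaks. Alternatives were DESeq2 1.42.0, scaling by library size alone, offsets trended on abundance (loess, limma 3.58.1), no filter on low counts, a fit of only the groups compared, other rules for placing peaks, and each library left out. Placing peaks with genes of every type was chosen after seeing the data.

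The members and gene lists were chosen with earlier results of these data known. The naming rule took every gene sum, every peak within 1 kb of a listed start site (or of a gene end where no start site was listed), and for each gene the called peak with the smallest p in each direction. The outer peaks of Ppargc1b, the Cited1 peak outside the gene and the Kcnk3 peak 3489 bp outside were chosen after their values were seen.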

Additional observations from a re-analysis of the deposited data

How the results depend on the processing

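No paired analysis was possible because the columns of the count table carry running numbers and not the replicate numbers of the labels. Over 124 values of single genes and peaks and their 2058 alternatives, 1753 were counted as unchanged, 261 lost the call and 19 gained one. Unchanged meant the same side of the threshold and direction, or a sign change under 1 SE with no call in either fit. The other 25 changed sign by at least 1 SE or with a call. Counts that moved by more than 1.5 times follow. With members inside gene bounds alone, the peaks fallen were 6 (main 12) at 4 hours, 3 (7) at 1 day, 1 (3) at 3 days and 1 (2) with rosiglitazone, those risen with rosiglitazone 6 (10), those of forskolin against rosiglitazone 3 risen (5) and 4 fallen (9), those risen from 4 hours to 3 days 0 (4), and genes called 1 (3) with rosiglitazone and 1 (4) for forskolin against rosiglitazone. DESeq2 called 5 risen and 4 fallen peaks at 1 day, 3 and 1 at 3 days, 6 and 1 with rosiglitazone, 5 fallen for forskolin against rosiglitazone, and 2 genes there. With library size alone, 4 peaks fell at 1 day, 8 rose and 1 fell at 3 days, 1 fell with rosiglitazone, 1 gene was called at 3 days and 2 genes between 3 days and 4 hours; this scaling moved the median log2 fold change of all peaks to 0.0957 at 4 hours (main −0.005), 0.192 at 1 day (0.04), 0.114 at 3 days (0.01) and 0.0973 with rosiglitazone (−0.004). With genes of every type, 4 peaks fell at 1 day, 1 fell with rosiglitazone, 3 rose for forskolin against rosiglitazone, 2 rose from 4 hours to 3 days, and 0 genes were called there. With gene-end peaks alone, 5 genes were called at 1 day and 1 each at 3 days, with rosiglitazone and for forskolin against rosiglitazone. A fit of only the groups compared called 3 risen peaks at 3 days, 0 genes at 3 days, 2 genes for forskolin against rosiglitazone and 0 genes between 3 days and 4 hours. A limit of 10 kb gave 1 fallen peak and 1 gene with rosiglitazone, 3 risen peaks and 2 genes for forskolin against rosiglitazone, and 2 risen peaks and 0 genes between 3 days and 4 hours. Trended offsets called 2 genes between 3 days and 4 hours. The cause was not tested, beyond that fewer peaks enter under the narrower placements.

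With each library left out in turn, at 4 hours 8 to 12 peaks rose and 6 to 13 fell, and 4 to 7 genes were called; at 1 day 5 to 8 rose, 2 to 8 fell and 1 to 3 genes were called; at 3 days 4 to 6, 0 to 3 and 0 to 3; with rosiglitazone 3 to 10, 0 to 3 and 0 to 4; for forskolin against rosiglitazone 4 to 5, 4 to 9 and 2 to 4; and between 3 days and 4 hours 3 to 6, 2 to 4 and 0 to 2. Signs of gene sums turned by at least 1 SE, or with a call, as follows. None of these sums was called in the main fit except Ppargc1b with rosiglitazone. Smaller turns are not listed, such as Elovl3 at 1 day, at −0.00958 in the main fit and −0.182 to 0.144 over its alternatives. Dio2 ran from −0.071 to 0.95 at 4 hours, −0.20 to 0.83 at 1 day, −0.43 to 0.59 at 3 days and −0.31 to 0.71 with rosiglitazone over left-out libraries. Kcnk3 at 1 day ran from −0.14 to 0.065, Acot2 at 3 days from −0.21 to 0.079 and Ppargc1b at 3 days from −0.021 (without S1; −0.017 without S8) to 0.20. Elovl3 at 4 hours was −0.016 with peaks of any overlap, −0.14 within 10 kb and −0.14 with gene-end peaks. Gene-end peaks gave −0.51 at 4 hours and −0.30 at 3 days for Kcnk3, and −0.30, −0.44, −0.24 and −0.24 for Ppargc1b at 4 hours, 1 day, 3 days and with rosiglitazone. Kcnk3 was 0.12 at 1 day and 0.10 with rosiglitazone with library size alone, and 0.13 and 0.10 with trended offsets, which gave 0.031 for Slc29a1 at 1 day. Acot11 with rosiglitazone was 0.034 within 10 kb, 0.034 inside gene bounds and 0.034 with genes of every type. Depth limits low peaks most: the Dio2 peak and the small peaks of Ppargc1b and Cited1 held few counts in each library.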

Other observations

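Family relatives of the 10 genes were read on the same gene sums, 35 of 38 being tested. At 4 hours of forskolin 7 rose and 4 fell, at 1 day 7 rose and 3 fell, at 3 days 3 rose and 0 fell, and with rosiglitazone 1 rose and 2 fell. Their medians were −0.009, −0.03, 0.001 and 0.009, beside −0.12, −0.13, −0.10 and −0.05 over all genes. The shares of all genes called here were 12.1%, 9.33%, 5.22% and 2.37% risen and 23.2%, 28.4%, 10.4% and 5.14% fallen. P2rx7, another ATP-gated channel of the P2X family, had 22.6 and 20.9 CPM with rosiglitazone, 27.8 and 25.4 in the controls, 46.3 and 42.7 after 4 hours of forskolin, 37.6 and 37.2 after 1 day and 35.6 and 36.6 after 3 days. It rose at 4 hours by 0.75 (adjusted p = 1.3e-05), while P2rx5 fell. Acot1, a neighbour and close relative of Acot2, rose with rosiglitazone by 0.73 (adjusted p = 0.0021), with 24.2 and 24.8 CPM against 13.1 and 16.3 in the controls. Cited2, a relative of Cited1, fell at 4 hours by 0.41 (adjusted p = 0.00062), to 102 and 110 CPM against 132 and 149 in the controls.

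The genes of thyroid hormone action, which is where the product of Dio2 acts, had 13 of 14 tested, with Dio1 and Dio3 also on the list of relatives. None rose against control in edgeR, while 5 fell at 4 hours, 4 at 1 day, 3 at 3 days and 3 with rosiglitazone. Of all genes, 23.2%, 28.4%, 10.4% and 5.14% fell in these comparisons. The list's medians were −0.14, −0.15, −0.07 and −0.09, beside −0.12, −0.13, −0.10 and −0.05 over all genes. Thra, the thyroid hormone receptor α gene, had 86.7 and 94.4 CPM with rosiglitazone, 109 and 118 in the controls, 62.2 and 70.4 after 4 hours of forskolin, 67.5 and 74.9 after 1 day and 83.6 and 85.7 after 3 days. It fell by 0.78 at 4 hours (adjusted p = 1.4e-06). Rxrg, which encodes the nuclear receptor RXRγ, fell by 0.49 at 4 hours (adjusted p = 0.00021).

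Among cell type markers, 2 of 10 adipocyte genes rose and 3 fell at 4 hours, and 0 rose and 6 fell at 1 day. At 3 days 0 rose and 4 fell, and with rosiglitazone 3 rose and 1 fell. Of all genes, 12.1%, 9.33%, 5.22% and 2.37% rose in these comparisons, and 23.2%, 28.4%, 10.4% and 5.14% fell. The adipocyte medians were −0.04, −0.23, −0.20 and −0.04, beside −0.12, −0.13, −0.10 and −0.05 over all genes. Of 9 progenitor genes 1 rose and 2 fell at 4 hours, 0 rose and 1 fell at 1 day, 1 rose and 0 fell at 3 days, and 0 rose and 2 fell with rosiglitazone. Of 7 macrophage genes tested 3 rose and 2 fell at 4 hours, and 1 rose and 2 fell at 1 day and at 3 days. With rosiglitazone 2 rose and 0 fell. In the same order of comparisons, the medians were −0.06, −0.01, −0.05 and −0.04 for progenitor genes. For macrophage genes they were −0.09, −0.003, 0.15 and 0.40.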
